A study of Mus musculus with 22 samples.

Results

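The genes described here are 36 genes of DNA replication, mitosis and meiotic division, taken from a list of 39 by matching gene symbols to the array. Pcna, Ccnb1 and Aurkc were not matched by symbol and are not analysed here. The 36 genes were among 15780 named genes that were measured, and none of them lies on chromosome 17, the chromosome that is partly trisomic in these mice. They cover the loading and activation of the replicative helicase (10 genes), the fork and DNA topology (2), deoxynucleotide supply (4), cyclins (6), cyclin-dependent kinases and an activating phosphatase (3), mitotic kinases with survivin (4), the spindle checkpoint and its target (4), and a group of 3 made up of E2f1, Foxm1 and the proliferation antigen gene Mki67.

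RNA from male mice aged 2 months was hybridised to 22 Affymetrix arrays. Trisomic males of genotype Ts43H, which carry an extra copy of proximal chromosome 17, were set against euploid males of genotype t121/D17. For both genotypes there were 3 liver arrays, 3 from pre-mid-pachytene spermatocytes, 2 from mid-late-pachytene spermatocytes and 3 from spermatids, and the germ cells had been sorted by flow cytometry from a testis cell suspension. Nothing in the labels says that arrays of 1 group stand for different animals, so p-values measure only the spread between these samples, which may be technical.

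Replication origins are licensed when Cdc6 and Cdt1 load the MCM helicase, and Cdc45 and Mcm10 then help to set it in motion. Cyclins with their kinases drive each step, and the spindle checkpoint holds Cdc20, the activator of the anaphase-promoting complex, until chromosomes are attached. Most hepatocytes of adult liver rest outside the cycle, whereas spermatocytes pass through a last round of replication before meiosis and then prepare for the meiotic divisions, after which spermatids no longer divide.

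All levels below are log2 intensities, and differences are in log2. On this scale the weakest probe sets pile up below 3, which is called the background range and held 38.4% to 40.2% of all genes in every group. A level was never set against that of another gene, because the probes differ. Pairs of arrays within a group had a correlation over genes, which are no independent replicates, of 0.988 to 0.997. Hepatocyte markers gave a summed level of 18.93 to 18.95 in trisomic liver and 18.91 to 18.99 in euploid liver, and reached at most 5.89 on any germ cell array. The sorted germ cells were less distinct. Elongating spermatid markers summed to 17.55 to 18.17 in trisomic and 17.70 to 17.96 in euploid pre-mid-pachytene spermatocytes, close to the 17.76 to 18.34 in trisomic and 18.24 to 18.44 in euploid spermatids. In mid-late-pachytene spermatocytes they had 13.95 to 14.24 in trisomic and 13.90 to 15.11 in euploid cells. The part of such cells in the germ cell levels below was not tested.

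**Figure D1:**
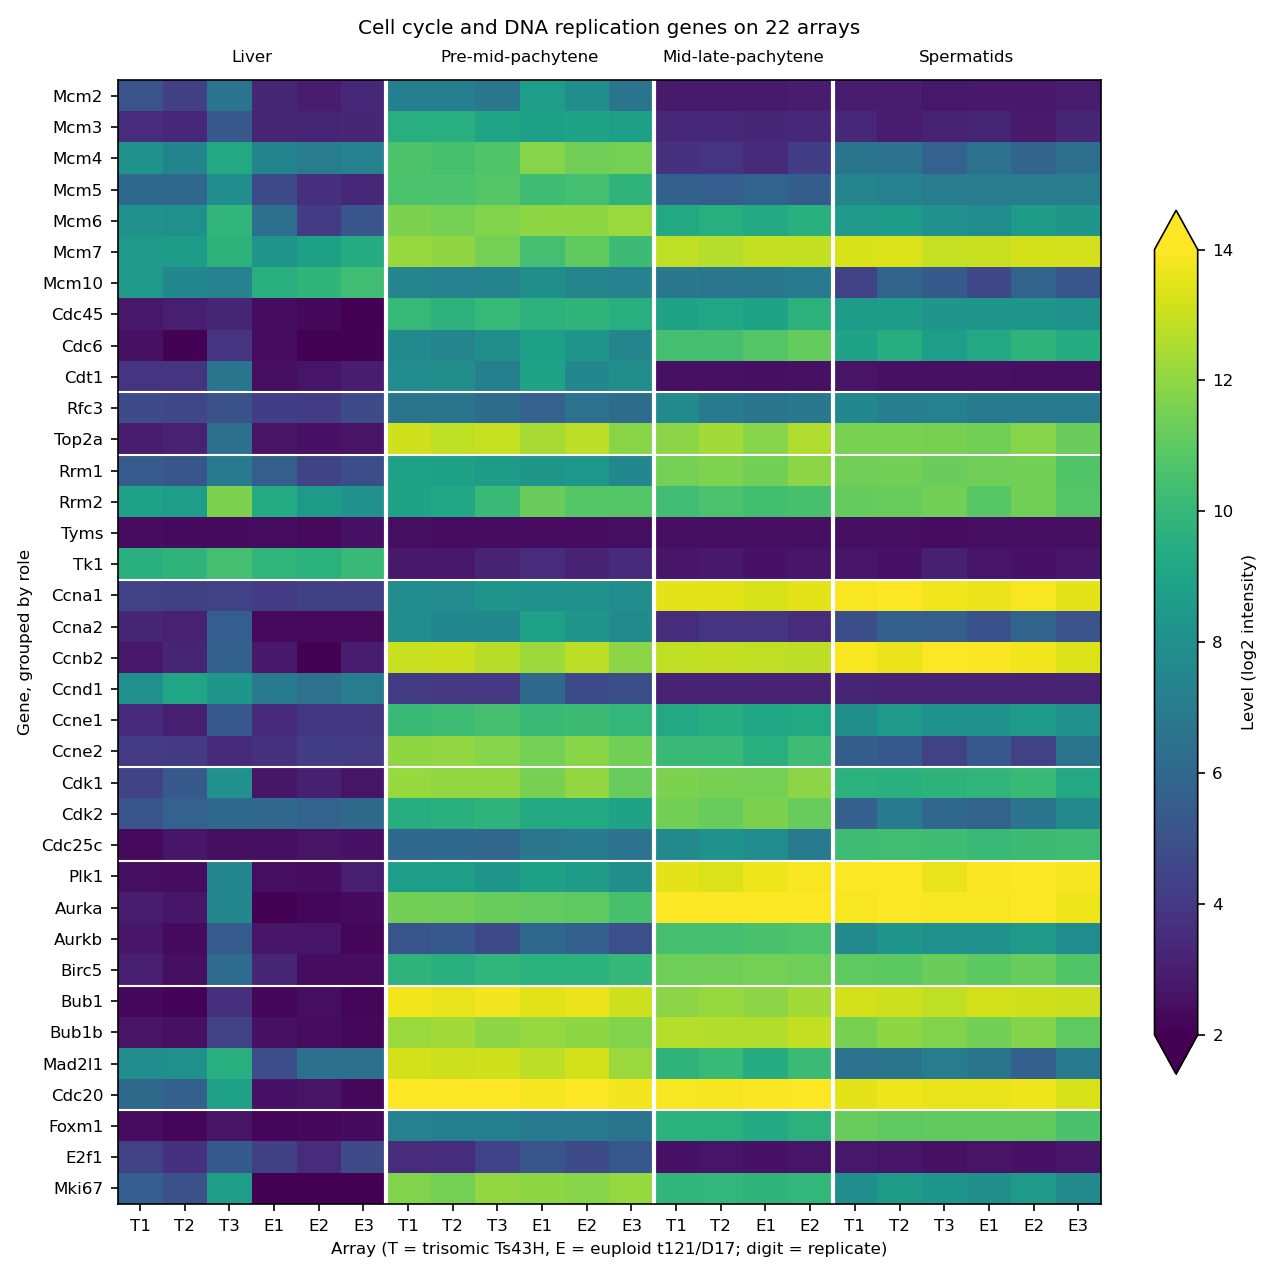
Heat map of the 36 genes (rows, grouped by role) on the 22 arrays (columns, grouped by cell type with trisomic, T, before euploid, E). Colour gives the log2 intensity on a scale of 2 to 14. Most genes are lowest on the euploid liver arrays, and the third trisomic liver array stands out among the liver columns.

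In euploid males the great majority of these genes were far lower in liver than in germ cells. Against the mean of the 3 euploid germ cell types, 30 of the 36 genes were lower in liver and 4 were higher at an adjusted p under 0.05 (limma, two-sided, Benjamini-Hochberg over all genes). Of all genes 46.3% were lower and 30.1% higher, and the median difference was -5.16 for the 36 genes against -0.08 for all genes. In euploid liver 18 of the 36 had a mean in the background range, so that the size of many of these differences is limited by the floor of the array. In these bulk samples fewer cells that express a gene and less RNA per cell cannot be told apart. Wider lists of cell cycle genes, which hold none of the 36, ran the same way: 39 of 41 genes of the spindle and chromosome segregation, 23 of 29 replication fork genes and 17 of 20 origin genes were lower in euploid liver, but only 7 of 14 cell cycle inhibitors and pocket proteins.

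The largest of these differences were in genes of the spindle checkpoint, mitotic kinases and a cyclin, whose order is limited by the floor in liver. Cdc20 had 2.49 ± 0.20 in euploid liver (SD, n = 3), against 13.90 ± 0.13 in pre-mid-pachytene spermatocytes (n = 3), 14.01 ± 0.14 in mid-late-pachytene spermatocytes (n = 2) and 13.53 ± 0.20 in spermatids (n = 3), a difference of -11.33 (SE 0.43, adjusted p = 3.157e-13). Aurka, the kinase of the spindle poles, differed by -10.88, Bub1 by -10.62, Bub1b by -9.63 and Plk1, a kinase of mitotic and meiotic entry, by -9.46. The cyclin gene Ccnb2 differed by -10.33, Top2a, which untangles replicated chromosomes, by -9.40, and Cdk1, the kinase of division, by -8.20. All of these had euploid liver means in the background range. In the same groups Aurkb differed by only -5.55 and Mad2l1 by -3.73. The helicase loading genes that were lower ran from -7.36 for Cdc6 to -1.30 for Mcm2, and Mcm4 had 7.26 ± 0.17 in euploid liver and was not called (difference 0.04, 95% interval -0.59 to 0.66).

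Tk1, Mcm10 and Ccnd1 ran the other way, and so did E2f1 against the mean of the germ cell types. Tk1, the thymidine kinase that recycles thymidine, had 9.90 ± 0.21 in euploid liver and lay between 2.67 and 3.39 as a mean in every euploid germ cell type (difference 6.99, SE 0.15, adjusted p = 1.684e-16). Mcm10 was higher in euploid liver by 3.37 (SE 0.32, adjusted p = 6.532e-08) and Ccnd1, the cyclin that answers growth signals in G1, by 2.97 (SE 0.24, adjusted p = 8.832e-09). E2f1 was higher by 0.76 (SE 0.30, adjusted p = 0.0331), a difference of 0.46 with an adjusted p of 0.2174 without euploid liver replicate 3. Tyms, thymidylate synthase, had means below 3 in all 4 euploid cell types and gave no measurable pattern. By euploid mean, the cell type with the highest level was pre-mid-pachytene spermatocytes for 15 genes, mid-late-pachytene spermatocytes for 9, spermatids for 8 and liver for 3.

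**Figure D2:**
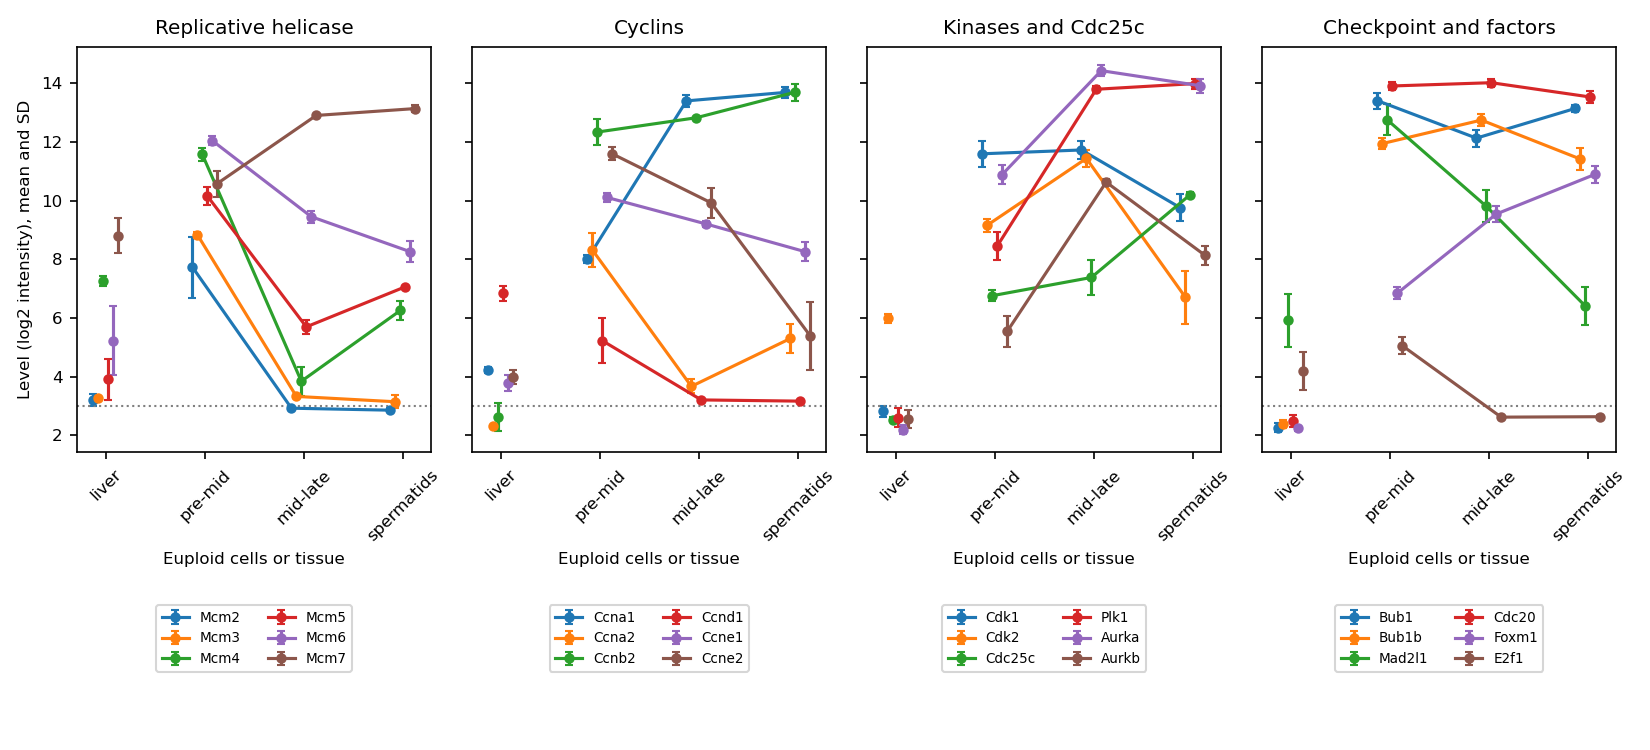
Euploid mean and SD (log2 intensity) of 24 of the genes in liver and, joined by lines, in the 3 germ cell types, in 4 panels by role. Most genes are lowest in liver, the helicase genes other than Mcm7 peak in pre-mid-pachytene cells, and Plk1, Ccna1 and Foxm1 are high from mid-late pachytene on.

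Within the germ line most helicase loading genes were lower and most kinases of division higher in mid-late than in pre-mid-pachytene spermatocytes. In euploid mid-late-pachytene spermatocytes 10 of the 36 genes were higher and 14 lower than in pre-mid-pachytene spermatocytes, where 29.6% of all genes were higher and 21.2% lower. In the same comparison 7 of 10 spermatogonia markers and 6 of 11 Sertoli cell markers were lower and none was higher. The part of such cells in the differences below was not tested. Among helicase loading genes 6 fell, and the largest difference was that of Mcm4, with 3.85 ± 0.49 in mid-late-pachytene (SD, n = 2) and 11.57 ± 0.22 in pre-mid-pachytene spermatocytes (n = 3; -7.72, SE 0.40, adjusted p = 9.288e-11). Cdt1 fell by 5.63, Mcm3 by 5.51 and Mcm2 by 4.80. In the same group 2 genes rose instead, Cdc6 by 2.82 and Mcm7 by 2.32, so that the subunits of the MCM helicase did not move together at the RNA level. Among cyclins Ccna2, the mitotic A-type cyclin, fell by 4.65, while Ccna1, the A-type cyclin of male meiosis, had 13.39 ± 0.19 in mid-late-pachytene (n = 2) and 8.01 ± 0.13 in pre-mid-pachytene spermatocytes (n = 3; 5.38, SE 0.13, adjusted p = 2.392e-14).

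Among the kinases and regulators, Plk1 rose by 5.34, Aurkb, the kinase of the chromosomal passenger complex, by 5.08 and Aurka by 3.54. Foxm1, a transcription factor of division genes, rose by 2.70, Cdk2, which acts on meiotic chromosomes, by 2.27, and Rrm1, a subunit of ribonucleotide reductase, by 3.57. Mad2l1, a spindle checkpoint gene, fell by 2.94 and E2f1, a transcription factor of replication genes, by 2.44. Of the 24 calls, 20 held in every alternative, and Ccne2, Cdc25c, Mki67 and Tk1 lost theirs in at least 1; without euploid mid-late-pachytene replicate 1, for example, Cdc25c differed by 0.19 (adjusted p = 0.4082) in place of 0.62. Centring each array on its median moved all differences by 0.51 in this comparison and gave 14 genes higher and 13 lower, in place of 10 and 14. Of the wider lists 10 of 20 origin genes were lower and 4 higher in mid-late-pachytene spermatocytes. Of 29 replication fork genes 9 were higher and 9 lower, and of 41 spindle and segregation genes 11 were higher and 7 lower. Of all genes 29.6% were higher and 21.2% lower, so the spindle counts lay near or under the shares of all genes.

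In euploid spermatids 6 genes were higher and 10 lower than in mid-late-pachytene spermatocytes, where 16.7% of all genes were higher and 19.8% lower. Cdk2 had 6.71 ± 0.91 in spermatids (n = 3) and 11.43 ± 0.29 in mid-late-pachytene spermatocytes (n = 2), a difference of -4.73 (SE 0.43, adjusted p = 2.231e-07). Ccne2, the E-type cyclin that partners Cdk2, fell by 4.53, Mad2l1 by 3.40 and Aurkb by 2.50. Cdc25c, the phosphatase that activates Cdk1, reached 10.20 ± 0.09 in spermatids (n = 3), against 7.38 ± 0.61 in mid-late-pachytene spermatocytes (n = 2; 2.82, SE 0.19, adjusted p = 1.383e-08), and Mcm4 rose by 2.41 and Foxm1 by 1.35. Those 7 calls held in every alternative. The other 9 (Bub1, Bub1b, Ccna2, Cdc45, Cdc6, Cdk1, Mcm5, Mcm10 and Mki67) were lost in at least 1, and 5 to 7 of them were lost when either mid-late-pachytene array was left out. Plk1 and Ccna1 stayed high without a call, at 13.98 ± 0.17 and 13.68 ± 0.18 in spermatids (difference 0.19, 95% interval -1.94 to 2.33, and 0.29, 0.01 to 0.56). The wide Plk1 interval uses the spread shared by all 8 groups, among which trisomic liver had an SD of 2.93.

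Trisomic liver had higher levels than euploid liver of 5 of the 10 helicase loading genes, 2 of the 4 spindle checkpoint genes, and Ccnd1, Cdk1 and Mki67. No gene of the fork, deoxynucleotide and mitotic kinase groups was called, although the median differences of these groups were 0.97, 0.47 and 1.35. At an adjusted p under 0.05, 10 of the 36 genes were higher in trisomic liver (27.8%, against 3.12% of all genes) and 1 was lower (2.78%, against 2.09%). The median difference over the 36 genes was 0.96, against 0.0004 over all genes, and 31 of the 36 differences were positive. All 3 trisomic arrays lay above all 3 euploid arrays for 14 genes and below them for 1, where 7.6% and 7.2% of all genes did so. These calls use a spread estimated over all 8 groups; with the 6 liver arrays alone none of the 36 genes passed (10 at an unadjusted p under 0.05) and 14 genes of the whole array did, while the exact permutation test of 3 arrays against 3 cannot give a p below 0.1.

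The strongest differences were in Mki67 and Cdc20. Mki67, whose protein coats mitotic chromosomes and marks dividing cells, had 5.58, 4.99 and 8.72 in trisomic liver, against 1.50, 1.41 and 1.42 in euploid liver. The groups did not overlap, and the difference was 4.99 (SE 0.62, adjusted p = 0.0001379). Cdc20 had 6.16, 5.69 and 8.85 in trisomic liver, against 2.59, 2.62 and 2.25 in euploid liver (4.41, SE 0.52, adjusted p = 7.359e-05). Every trisomic array was clear of the background range for both genes, and no euploid array was. Since the euploid values lie in that range, the sizes of both differences depend on the floor of the array.

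Of the other spindle checkpoint genes, Mad2l1, which inhibits Cdc20 at unattached chromosomes, was well above the background range in both genotypes. It had 7.89, 8.04 and 9.56 in trisomic liver, against 4.88, 6.45 and 6.42 in euploid liver (2.58, SE 0.48, adjusted p = 0.00394). Cdk1 had 4.45, 5.33 and 8.08 in trisomic liver, against 2.72, 3.04 and 2.69 in euploid liver (3.13, SE 0.60, adjusted p = 0.004902). Neither gene's groups overlapped. Bub1 and Bub1b were not called, with differences of 0.42 (adjusted p = 0.6431) and 0.77 (adjusted p = 0.2961).

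Helicase loading and activation held 5 of the 10 genes that were higher. Mcm6 had 8.09, 8.01 and 9.89 in trisomic liver, against 6.44, 4.08 and 5.18 in euploid liver (3.43, SE 0.50, adjusted p = 0.0005583). Mcm5 had 6.09, 6.04 and 7.87 in trisomic liver, against 4.71, 3.63 and 3.39 in euploid liver (2.76, SE 0.39, adjusted p = 0.0005056). Mcm2 had 5.07, 4.27 and 6.61 in trisomic liver, against 3.29, 2.98 and 3.34 in euploid liver (2.11, SE 0.48, adjusted p = 0.01585). In these 3 subunits of the helicase the trisomic arrays all lay above the euploid arrays. The loading factor Cdt1 had 3.84, 3.86 and 6.67 in trisomic liver, against 2.44, 2.68 and 2.98 in euploid liver (2.09, SE 0.54, adjusted p = 0.03416). Cdc45, a component of the moving helicase, had 2.79, 3.01 and 3.29 in trisomic liver, against 2.42, 2.27 and 1.57 in euploid liver (0.94, SE 0.22, adjusted p = 0.01632), all of it at the edge of the background range. The remaining subunits were not called, and Mcm7 had 8.44, 8.65 and 9.78 in trisomic liver, against 8.21, 8.83 and 9.37 in euploid liver, so that the groups overlapped.

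Mcm10 was the exception in this group. It had 8.43, 7.62 and 7.31 in trisomic liver, against 9.56, 9.84 and 10.34 in euploid liver, without overlap (-2.13, SE 0.39, adjusted p = 0.003234), a level 0.229 times that of euploid liver. It is also among the few genes of the list that euploid liver holds at a higher level than germ cells do. Ccnd1, another of these, had 8.01, 9.09 and 8.36 in trisomic liver, against 6.94, 6.55 and 7.04 in euploid liver (1.65, SE 0.29, adjusted p = 0.002711), or 3.13-fold. Tk1, the third, had 9.57, 9.82 and 10.39 in trisomic liver and 9.92, 9.68 and 10.10 in euploid liver and was not called, and nor were the other genes of deoxynucleotide supply.

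None of the 4 mitotic kinase and survivin genes was called, although their median difference was 1.35, and in each of them 1 trisomic array was far above the other 5 liver arrays. Aurka had 2.91, 2.74 and 7.54 in trisomic liver, against 2.04, 2.21 and 2.34 in euploid liver (2.20, adjusted p = 0.171). Plk1 had 2.44, 2.39 and 7.49 in trisomic liver, against 2.45, 2.40 and 2.99 in euploid liver (1.50, adjusted p = 0.5299). Replicate 3 was likewise the highest of the 6 arrays for the survivin gene Birc5 (1.20, adjusted p = 0.414), for Top2a (1.54, adjusted p = 0.2219) and for the cyclin genes Ccna2 (1.70, adjusted p = 0.06427) and Ccnb2 (1.31, adjusted p = 0.2005). Rrm2, a subunit of ribonucleotide reductase, differed by 1.07 (adjusted p = 0.4452) and Mcm4 by 1.02 (adjusted p = 0.1283). The remaining 17 genes differed by between -0.30 for Cdk2 and 0.97 for Aurkb.

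**Figure D3:**
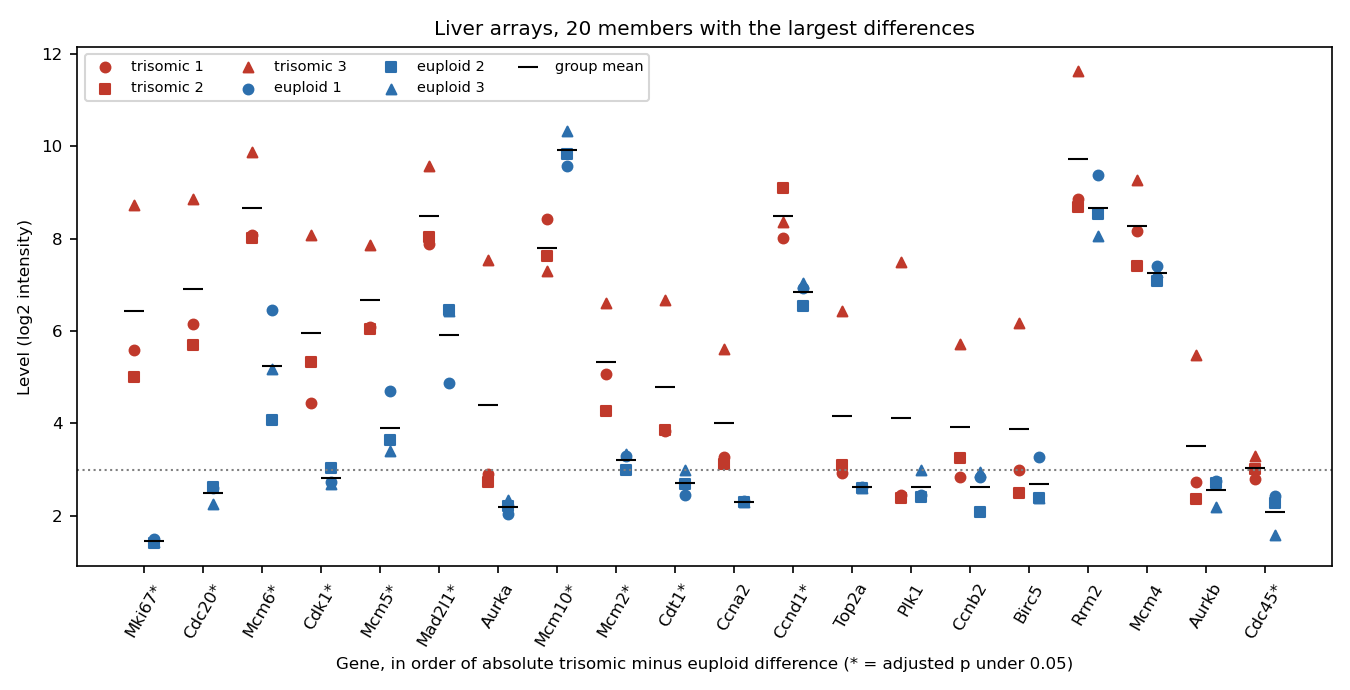
Log2 intensity of the 20 genes with the largest liver differences on the 3 trisomic and 3 euploid liver arrays, with group means, a dotted line at 3 and an asterisk at an adjusted p under 0.05. The replicate 3 points of trisomic liver lie above the other trisomic points for all of these genes but Mcm10 and Ccnd1, and those of Mki67, Cdc20 and Mcm6 on replicates 1 and 2 still lie above the euploid points.

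The array of trisomic liver replicate 3 stood apart in these genes. It was the highest of the 6 liver arrays for 29 of the 36 genes (80.6%), whereas it was the highest for 12.0% of all genes. It exceeded the mean of the other trisomic arrays by at least 1 for 25 of the 36 genes (69.4%), against 2.22% of all genes. The median over the 36 genes was 4.20, 3.96 and 6.30 on the 3 trisomic liver arrays and 3.26, 3.01 and 3.15 on the euploid ones, while the medians of all genes lay between 4.26 and 4.42. Trisomic replicates 1 and 2 were both above every euploid array for 14 of the 36 genes (38.9%), against 11.4% of all genes. For 17 further genes replicate 3 was above every euploid array, but replicates 1 and 2 were not both above. For 7 genes replicates 1 and 2 were below 3 and only replicate 3 reached 3 or more.

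Without that array 9 genes were still called higher and Mcm10 lower, and the median difference over the 36 genes was 0.17. Of all genes 886 (5.61%) were called in that setting. Cdk1 then differed by 2.07 (adjusted p = 0.0004633), Cdt1 by 1.15 (adjusted p = 0.02945), Mki67 by 3.84 and Cdc20 by 3.44. Cdc45 was no longer called (adjusted p = 0.0636), nor was it without euploid liver replicate 3, and Cdt1 was not called when any of the 3 euploid liver arrays was left out. Plk1 differed by -0.20 without trisomic replicate 3. Leaving out trisomic replicate 1 instead added Ccna2 (2.06) and Ccnb2 (1.86), and leaving out trisomic replicate 2 added Ccna2 (2.14), Mcm4 (1.46) and Aurka (3.03).

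**Figure D4:**
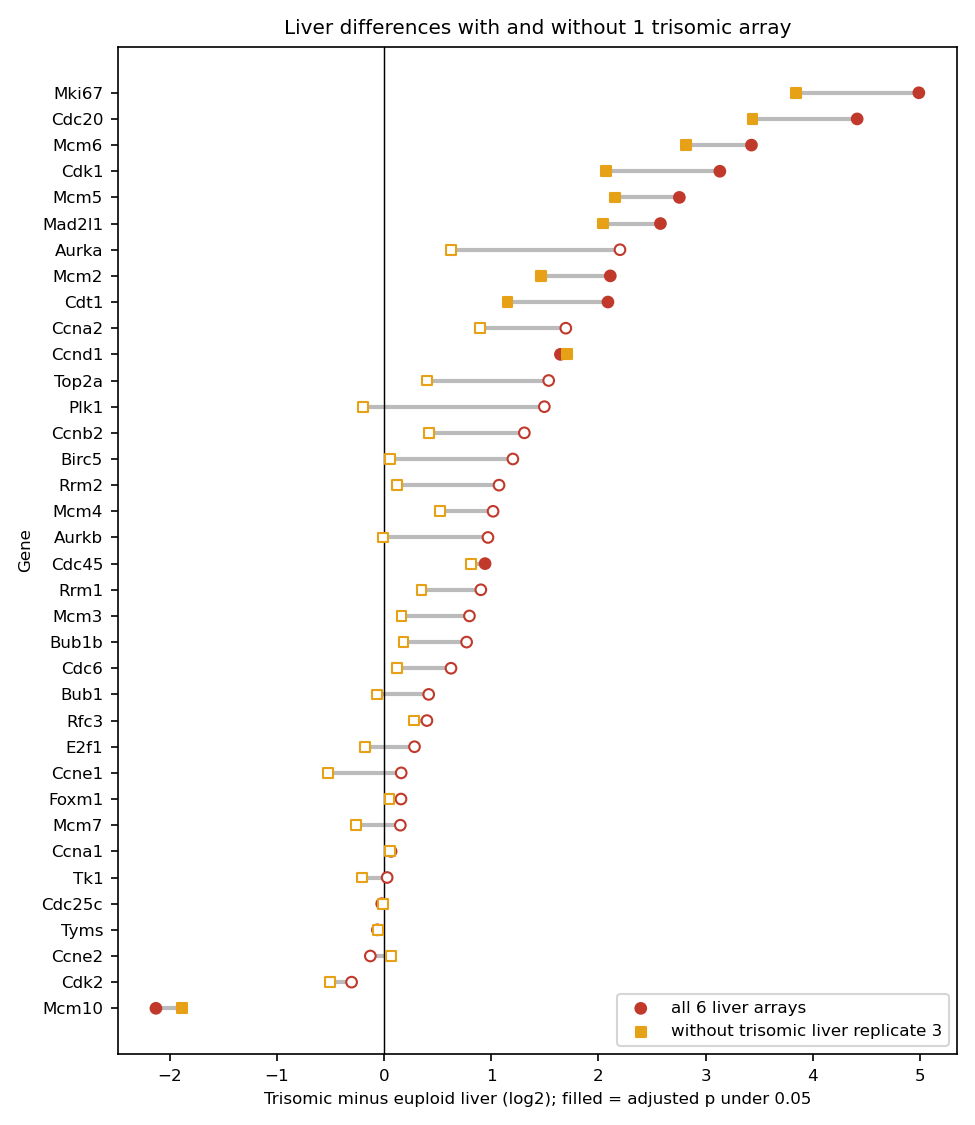
Trisomic minus euploid difference in liver (log2) of each gene with all 6 liver arrays and without trisomic liver replicate 3, with filled points at an adjusted p under 0.05. Mki67, Cdc20 and Mcm6 stay at the top without the array, and Plk1 and Aurka drop towards 0.

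Hepatocyte markers did not pass the test in trisomic liver (0 of 9), and all lymphocyte (9) and neutrophil (7) markers were in the background range in both genotypes. None of 12 Kupffer cell and macrophage markers was called, with a summed level of 11.77 to 11.98 in trisomic and 11.51 to 12.16 in euploid liver. Erythroid markers summed to 10.61 to 11.57 in trisomic and 12.28 to 12.97 in euploid liver, with Alas2 lower by 1.54. Alas2 alone had 10.54 to 11.54 in trisomic and 12.27 to 12.96 in euploid liver. The other 5 of these 6 markers were not called, and the median difference of the list was 0.003. Stellate cell and fibroblast markers summed to 14.22 to 14.47 in trisomic and 13.89 to 14.07 in euploid liver, with Col1a2 higher by 1.66 and Lum by 0.78. The other 7 of these 9 markers were not called. Sinusoidal endothelium markers had Lyve1 lower by 2.66 and Oit3 by 1.73 (12.03 to 12.80 in trisomic, 12.64 to 12.79 in euploid liver), and the other 7 of 9 were not called. Of 5 cholangiocyte markers Krt19 was higher by 1.26 (6.80 to 7.23 in trisomic, 6.68 to 6.99 in euploid liver). Without trisomic liver replicate 3, Oit3 and Krt19 were no longer called, and the sinusoidal marker Tek was called lower. The part of all these cell types in the cell cycle differences was not tested.

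Of the 142 genes of the wider lists 14 rose and 1 fell in trisomic liver (9.86% and 0.704%, against 3.12% and 2.09% of all genes). Of 20 genes of origin licensing and firing 4 rose in trisomic liver, among them Dbf4 (1.58), the activator of the kinase that fires origins, and Gmnn (0.89), the inhibitor of Cdt1. Of 29 replication fork genes 5 rose and 1 fell, with Lig1 (2.55), the ligase that joins Okazaki fragments, Prim1 (1.76) and Pola1 (1.73), which lay down primers, against Rfc1 (-0.39). Of 41 genes of the spindle and of chromosome segregation 4 rose, the centromere histone Cenpa by 2.01 and the passenger subunit Cdca8 by 1.85 among them. Of 21 cell cycle kinases, cyclins and phosphatases only Pbk rose (4.76%, near the share of all genes), with 5.72, 4.24 and 9.04 in trisomic liver, against 3.58, 3.29 and 3.30 in euploid liver (2.94). None of 14 inhibitors and pocket proteins passed (3 at an unadjusted p under 0.05; Cdkn2c 0.47, adjusted p = 0.4256, and Rb1 0.28, adjusted p = 0.839), nor did any of 17 cell cycle transcription factors (1 at an unadjusted p under 0.05; Hspa2 -0.47, adjusted p = 0.7485, and E2f5 0.12, adjusted p = 1). Hspa2 is no transcription factor but a chaperone of spermatocytes.

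The array of trisomic liver replicate 3 was the highest of the 6 for 80 of these 142 genes (56.3%). Without it 1 origin gene (Gmnn), 5 fork genes, 2 spindle genes and Pbk rose and 2 fork genes fell, and with the liver arrays alone no gene of the 6 lists passed.

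The promoters of all 9 genes called in liver with a difference of at least 2 are shown because cell cycle genes are known to be switched through E2F sites and through a CHR element near CCAAT boxes. The sequences are from RefSeq on the mouse assembly GRCm38.p6, are written in the direction of transcription, and end at the annotated start of the gene. Capitals mark matches on either strand to E2F (TTTCCCGC, TTTCGCGC, TTTGCCGC or TTTGGCGC), CHR (TTTGAA or TTCGAA) or CCAAT. In the windows of all genes of the list 1 pair of matches of different motifs overlapped. On the plus strand are Mcm5 at chr8:75109259-75109467, Cdt1 at chr8:122567765-122568014 and Mad2l1 at chr6:66534971-66535220. On the minus strand are Mcm2 at chr6:88898781-88899030, Mcm6 at chr1:128359706-128359955, Mcm10, the gene that fell, at chr2:5012792-5013041, Cdc20 at chr4:118437344-118437593, Cdk1 at chr10:69352913-69353162 and Mki67 at chr7:135716451-135716629.
Mcm2: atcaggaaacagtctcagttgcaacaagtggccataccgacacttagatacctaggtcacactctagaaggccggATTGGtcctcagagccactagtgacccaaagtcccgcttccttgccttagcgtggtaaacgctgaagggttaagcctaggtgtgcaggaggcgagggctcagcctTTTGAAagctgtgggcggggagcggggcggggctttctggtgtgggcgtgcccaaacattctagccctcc
Mcm5: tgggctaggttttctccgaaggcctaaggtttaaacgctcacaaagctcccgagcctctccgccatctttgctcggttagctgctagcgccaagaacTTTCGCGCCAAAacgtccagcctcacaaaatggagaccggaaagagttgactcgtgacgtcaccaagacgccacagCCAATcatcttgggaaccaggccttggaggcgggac
Mcm6: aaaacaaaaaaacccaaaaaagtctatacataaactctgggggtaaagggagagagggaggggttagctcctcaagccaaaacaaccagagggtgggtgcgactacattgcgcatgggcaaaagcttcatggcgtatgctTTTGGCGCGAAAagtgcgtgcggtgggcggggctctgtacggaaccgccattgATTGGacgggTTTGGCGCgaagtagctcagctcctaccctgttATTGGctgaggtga
Mcm10: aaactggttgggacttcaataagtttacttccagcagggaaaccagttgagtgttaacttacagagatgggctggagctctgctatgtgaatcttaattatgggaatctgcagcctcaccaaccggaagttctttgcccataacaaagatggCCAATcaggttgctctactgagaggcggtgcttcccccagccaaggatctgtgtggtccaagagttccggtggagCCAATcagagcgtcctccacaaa
Cdt1: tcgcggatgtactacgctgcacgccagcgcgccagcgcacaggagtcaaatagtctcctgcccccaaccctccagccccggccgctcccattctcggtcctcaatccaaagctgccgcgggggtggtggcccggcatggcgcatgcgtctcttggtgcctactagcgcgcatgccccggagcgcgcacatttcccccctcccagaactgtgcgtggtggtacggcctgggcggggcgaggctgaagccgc
Cdk1: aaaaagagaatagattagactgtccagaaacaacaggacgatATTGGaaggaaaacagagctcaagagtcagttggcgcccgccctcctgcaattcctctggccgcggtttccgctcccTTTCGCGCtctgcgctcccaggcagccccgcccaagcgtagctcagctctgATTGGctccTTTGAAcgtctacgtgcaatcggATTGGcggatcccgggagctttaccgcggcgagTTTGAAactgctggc
Mad2l1: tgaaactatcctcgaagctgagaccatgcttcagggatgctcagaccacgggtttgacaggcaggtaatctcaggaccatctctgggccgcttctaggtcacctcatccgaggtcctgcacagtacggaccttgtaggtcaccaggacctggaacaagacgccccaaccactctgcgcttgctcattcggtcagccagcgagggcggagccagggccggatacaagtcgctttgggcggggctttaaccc
Cdc20: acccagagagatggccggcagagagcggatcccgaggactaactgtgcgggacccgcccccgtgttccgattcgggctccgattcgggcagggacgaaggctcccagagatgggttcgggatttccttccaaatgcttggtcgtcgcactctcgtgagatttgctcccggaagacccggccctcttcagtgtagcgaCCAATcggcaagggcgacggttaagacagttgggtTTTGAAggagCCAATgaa
Mki67: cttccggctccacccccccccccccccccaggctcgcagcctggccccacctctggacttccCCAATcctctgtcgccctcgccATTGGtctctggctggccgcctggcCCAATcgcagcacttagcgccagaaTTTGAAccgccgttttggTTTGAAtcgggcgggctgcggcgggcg

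In these stretches Mcm6 had 3 E2F matches and Mcm5 had 2, neither with a CHR, whereas Mki67 had 2 CHR matches and Cdc20 and Mcm2 had 1 each, none of them with E2F, and Cdk1 had 1 E2F and 2 CHR matches. The 2 E2F matches of Mcm5, and 2 of those of Mcm6, overlap on opposite strands and appear as 1 run of capitals. Mcm10, Mad2l1 and Cdt1 had neither, and Mad2l1 and Cdt1 had no CCAAT either, while the other 7 held at least 1. Windows of 250 bases before to 50 after the start were found for 29 of the 36 genes. In these longer windows E2F was matched in 9 of the 29, against 2.6% of 27025 genes, CHR in 13, against 21.7%, and CCAAT in 21, against 41.1%. CHR together with CCAAT was found in 13 of the 29 and in 8.61% of all genes. Of the 9 genes with a window that were called higher in trisomic liver, 4 held E2F, 5 CHR and 8 either of them, and of the other 20 genes these were 5, 8 and 11. These are matches of letters, not sites of binding. Of the genes called in liver, 5 span on GRCm38.p6 chr6:66535221-66541107 (Mad2l1), chr6:88883474-88898780 (Mcm2), chr8:122568015-122573130 (Cdt1), chr7:144929931-144939831 (Ccnd1) and chr16:18780447-18811972 (Cdc45).

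In trisomic pre-mid-pachytene spermatocytes 1 gene was higher and 2 were lower than in euploid ones (2.78% and 5.56%, against 2.8% and 2.03% of all genes), with a median difference of 0.13 over the 36 genes. Mcm7 had 12.13, 12.00 and 11.49 in trisomic cells, against 10.40, 11.08 and 10.25 in euploid cells (1.30, SE 0.33, adjusted p = 0.03796). Ccnd1 had 4.15, 3.99 and 3.99 in trisomic cells, against 6.09, 4.69 and 4.90 in euploid cells (-1.19, SE 0.29, adjusted p = 0.03166), and Cdc25c had 6.10, 6.10 and 5.95, against 6.76, 6.94 and 6.58 (-0.71, SE 0.17, adjusted p = 0.03134). The groups did not overlap in these 3 genes. They did not overlap in 15 of the 36 either way, 8 above and 7 below, where 12% and 6.48% of all genes did so.

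None of the 3 calls remained when trisomic replicate 1, trisomic replicate 2 or euploid replicate 1 was left out, and without euploid replicate 1 Ccnd1 differed by -0.75; with the pre-mid-pachytene arrays alone none of the 36 passed (13 at an unadjusted p under 0.05). Rrm2 had 8.90, 9.21 and 10.12 in trisomic cells, against 11.25, 10.83 and 10.78 in euploid cells, without overlap but also without a call (-1.54, SE 0.58, adjusted p = 0.1643). E2f1 had 3.53, 3.57 and 4.40 in trisomic cells, against 5.14, 4.73 and 5.30 in euploid cells (-1.23, SE 0.36, adjusted p = 0.0694), and was called without trisomic replicate 3 (adjusted p = 0.03228). Round spermatid markers were also lower in these trisomic cells, 4 of 10 of them (Spaca3 -2.03, Catsper3 -1.95, Tex36 -1.87 and Acrv1 -1.65), with a summed level of 13.04 to 13.80 in trisomic and 13.69 to 14.49 in euploid cells. None of 10 spermatogonia markers was called there. Their median difference was -0.18, and they summed to 11.17 to 11.61 in trisomic and 10.64 to 11.41 in euploid cells. The part of round spermatids or spermatogonia in the differences of Ccnd1, Cdc25c and Mcm7 was not tested.

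In trisomic mid-late-pachytene spermatocytes no gene was called (limma, 1 at an unadjusted p under 0.05), where 0.722% of all genes were. Differences ran from -0.55 for Cdc6 to 0.57 for Rfc3, the clamp loader subunit, with a median of -0.03. The trisomic arrays lay above both euploid arrays for 1 gene and below them for 8, where 11% and 33.9% of all genes did so. Cdc25c differed by 0.54 (95% interval 0.08 to 0.99, adjusted p = 0.5776), with 7.71 and 8.12 in trisomic and 7.81 and 6.95 in euploid cells. Without euploid replicate 1, which leaves 1 euploid array, it differed by 0.97. In trisomic spermatids no gene was called either (limma, 0 at an unadjusted p under 0.05), where 0.697% of all genes were, and differences ran from -0.48 for Cdc6 to 0.38 for Rfc3, with a median of 0.07. The germ cell intervals of many genes reached past a change of 1 in log2 either way, and for Mki67 they were -1.52 to 1.13 in pre-mid-pachytene spermatocytes, -1.59 to 1.66 in mid-late-pachytene spermatocytes and -1.10 to 1.55 in spermatids. These intervals use the spread shared by all 8 groups, liver included, and so do not measure the spread of germ cells alone. For Mki67 the SD was 2.01 in trisomic liver and 0.04 to 0.37 in the germ cell groups.

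Of the 142 genes of the wider lists 5 were higher and 4 lower in trisomic pre-mid-pachytene spermatocytes (3.52% and 2.82%), close to the 2.8% and 2.03% of all genes. The 5 were Gins4 (0.69), a helicase subunit, Pold2 (0.78), a polymerase subunit, Ckap2 (1.04), a spindle protein, Cdk7 (0.68), the kinase that activates other cyclin-dependent kinases, and Lin9 (1.09), a subunit of the complex that switches mitotic genes. Mastl (-1.15), the kinase that restrains a phosphatase at mitotic entry, was lower, and so were Cdc25a (-0.86), Cdkn3 (-0.75) and Cdc25b (-0.57). None of the 14 inhibitors passed there (Cdkn2c 0.53, adjusted p = 0.3087, and Rb1 0.14, adjusted p = 1). In trisomic mid-late-pachytene spermatocytes Lin9 alone was higher (1.46, adjusted p = 0.0491), and in trisomic spermatids no gene of the 6 lists was called (limma).

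**Figure D5:**
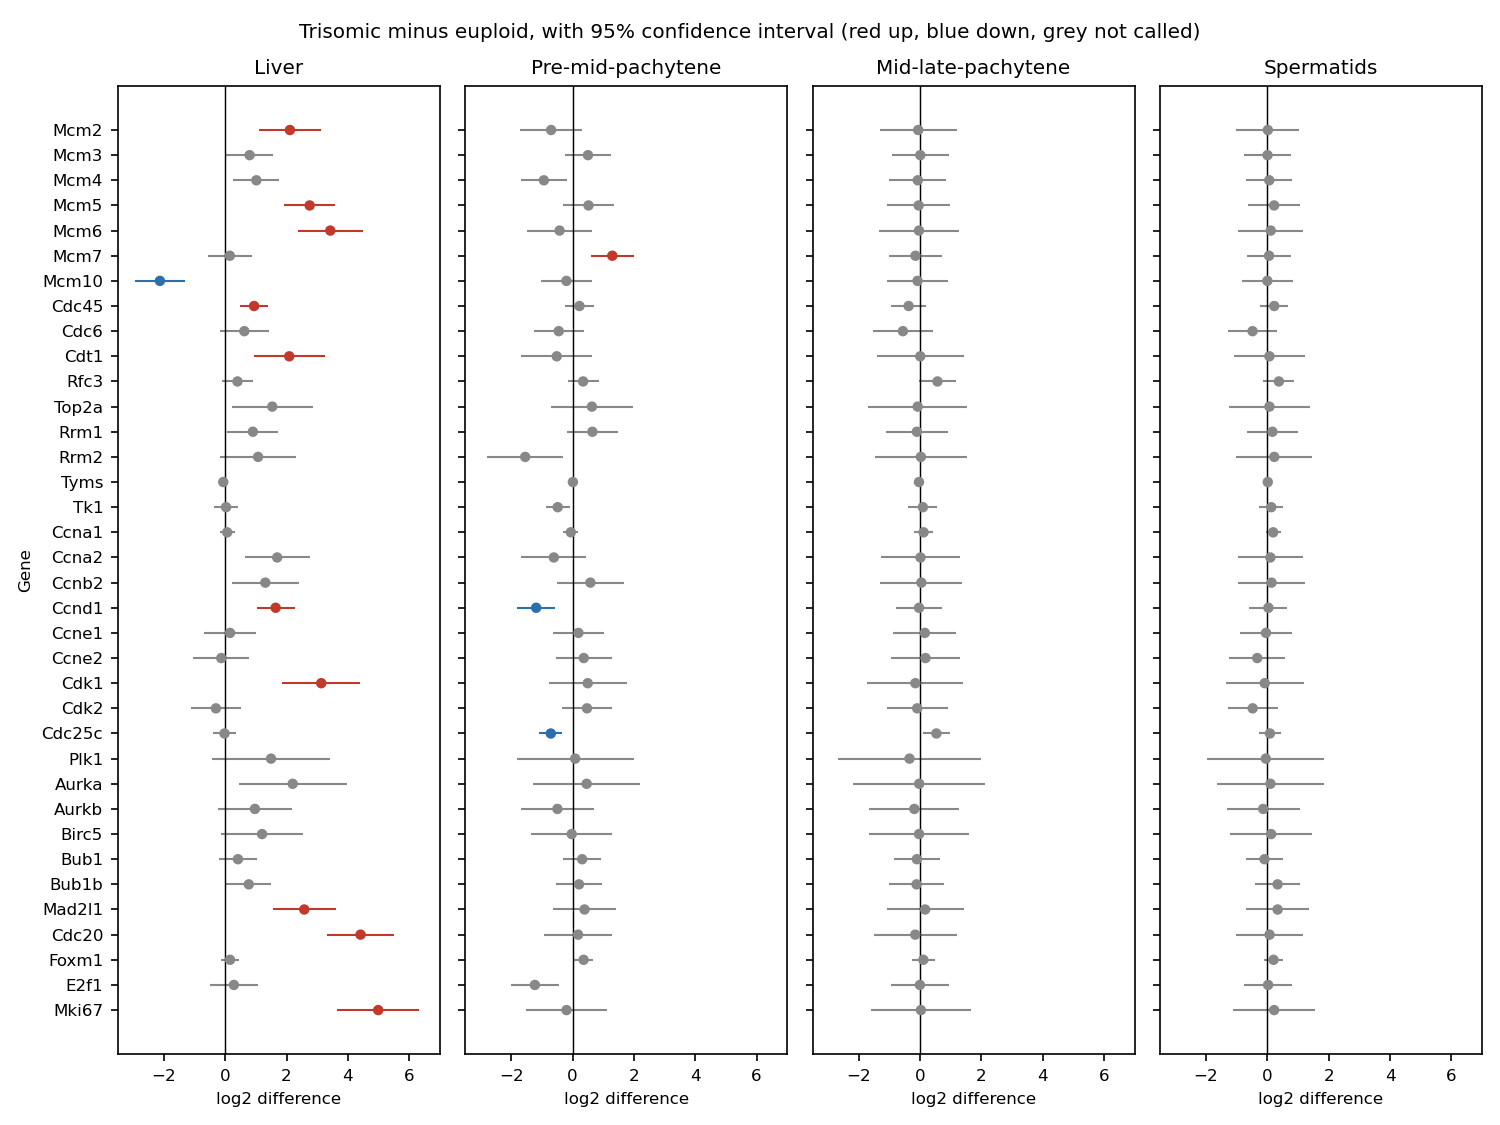
Trisomic minus euploid difference (log2) with its 95% interval for each of the 36 genes, in a panel per cell type. Genes called higher are red, genes called lower blue and the rest grey; 11 are coloured in liver, 3 in pre-mid-pachytene spermatocytes and none in the other 2 panels.

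The trisomic difference in liver was tested directly against its mean over the 3 germ cell types. It differed for 9 of the 36 genes, against 3.94% of all genes, and was larger in liver for 8 and smaller for 1 (22.2% and 2.78%, against 2.14% and 1.8% of all genes), with a median of 1.09 over the 36 genes and 0.0023 over all genes. The 8 genes were Mki67 (4.97, adjusted p = 0.0009684), Cdc20 (4.38, adjusted p = 0.0005752), Mcm6 (3.54, adjusted p = 0.002399), Cdk1, Mcm5, Mcm2, Mad2l1 and Ccnd1, and the gene with the smaller value was Mcm10 (-2.04, adjusted p = 0.01944). Ccnd1 was called higher in trisomic liver and lower in trisomic pre-mid-pachytene spermatocytes, and the test gave 2.04 (SE 0.34, adjusted p = 0.002743). That test does not set liver against pre-mid-pachytene spermatocytes alone. In mid-late-pachytene spermatocytes and spermatids the Ccnd1 means were 3.17 to 3.21, near the background range. The lower call was lost with quantile normalization (adjusted p = 0.07537) and on leaving out any trisomic pre-mid-pachytene array. In Cdc20 and Mki67 the germ cells were far above liver, with euploid germ cell means of 13.53 to 14.01 for Cdc20 and 8.04 to 11.96 for Mki67. The test uses the spread shared by all 8 groups, so its p-values do not measure the spread of liver alone. For Mki67 the SD was 2.01 in trisomic liver and 0.04 to 0.37 in the germ cell groups. With the 6 liver arrays alone, no liver difference of the 36 genes was called. Without trisomic liver replicate 3, 7 genes were called, 6 of the 9 and Cdt1, while Mcm2, Mcm10 and Mad2l1 were not. Without euploid liver replicate 3, Cdk1 (adjusted p = 0.0566), Mcm2 and Mcm10 were not called, Mcm2 was not called without euploid liver replicate 2, and Mad2l1 was lost on leaving out any of 10 of the 22 arrays. Without any 1 of the 22 arrays Ccnd1, Cdc20, Mcm5, Mcm6 and Mki67 were always called.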

How the data were processed

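Per the submitters' processing notes the authors used GCRMA, whose version is not given, and the deposited table holds log2 intensities per probe set. Which arrays were normalized together is not given in the sources used here. Of 16539 probe sets, 15780 carried 1 gene symbol each and 759 no name. GCRMA subtracts a background, and low values pile up at a floor; array medians ran from 4.10 to 4.69.

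The 36 genes and all lists were chosen with earlier results of these data known. With limma 3.58.1 in R 4.3.3 (statmod 1.5.0; Python 3.11.15 for other steps), 8 group means of 22 arrays were fitted together over all named genes without a filter on low values. Tests were two-sided, adjusted by Benjamini-Hochberg over 15780 genes at 0.05. Summed marker levels are log2 of summed intensities. The number of arrays limits the precision.

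In comparisons of genotypes every gene called was named with its value on each array, and others were named from a difference of 1; between cell types at most 4 genes per role and direction; in other lists up to 4 called genes, or the 2 with the highest mean. Alternatives were quantile normalization, centring, a minimum mean of 4, trended robust spread, the compared arrays only, a replicate block and leaving out each array; liver without trisomic replicate 3 was added after the values had been seen. Promoter windows were RefSeq's, on GRCm38.p6.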

Additional observations from a re-analysis of the deposited data

Results flagged for a closer look

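The trisomic difference in liver was set against its mean over the 3 germ cell types, and 9 of the 36 genes differed by that test (limma, adjusted p under 0.05, where 3.94% of all genes did). The values were 4.97 (SE 0.73, adjusted p = 0.0009684) for Mki67, 4.38 (SE 0.61, adjusted p = 0.0005752) for Cdc20, 3.54 (SE 0.59, adjusted p = 0.002399) for Mcm6, 3.05 (SE 0.71, adjusted p = 0.02369) for Cdk1 and 2.52 (SE 0.46, adjusted p = 0.005426) for Mcm5. They were 2.36 (SE 0.57, adjusted p = 0.02862) for Mcm2, 2.28 (SE 0.57, adjusted p = 0.03503) for Mad2l1, 2.04 (SE 0.34, adjusted p = 0.002743) for Ccnd1 and -2.04 (SE 0.46, adjusted p = 0.01944) for Mcm10. These p-values use the spread shared by all 8 groups and do not measure the spread of liver alone. Cdk1 gave 1.98 without trisomic liver replicate 3. No group held enough arrays for a search by rule for a single array far from the others. That trisomic liver replicate 3 stood apart in these genes is described above.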

How the results depend on the processing

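The liver counts rest on the spread shared by all groups: with only the arrays of the groups compared, 0 of the 36 genes were called in liver (14 genes of the array in place of 823), 0 in pre-mid-pachytene spermatocytes (23 in place of 762), and for mid-late-pachytene spermatocytes and spermatids 0 and 1 genes of the array in place of 114 and 110. Liver arrays alone without trisomic replicate 3, an alternative added after seeing the data, also gave 0, with 13 at an unadjusted p under 0.05, and Plk1 was -0.20 in both settings without that array (-0.20 to 2.36 with each liver array left out). Leaving out each array in turn gave 9 to 14 calls in liver, 0 to 2 in pre-mid-pachytene spermatocytes, 0 to 1 in mid-late-pachytene spermatocytes and 0 to 0 in spermatids. It gave 33 to 34 for euploid liver against germ cells, 20 to 25 for mid-late against pre-mid pachytene, 9 to 14 for spermatids against mid-late pachytene, and 6 to 12 for liver against germ cells in the trisomic difference. Over all genes, leaving out each array gave 706 to 1042 calls in trisomic liver and 262 to 985 in trisomic pre-mid-pachytene spermatocytes. Centring each array on its median moved the median of all genes by -0.12 in trisomic liver, 0.18 for euploid liver against germ cells, 0.51 and -0.30 between germ cell stages and -0.15 for the trisomic difference in liver against germ cells, and raised the array-wide counts between germ cell stages to 12745 in place of 8010 and to 10371 in place of 5761. A minimum mean of 4 left 17 of the 36 genes to test in liver, and 8 were called, where 9.55% of 8180 genes were. A gene low in 1 genotype passes this minimum only through the other, so the count gives no separate check. Cdc20, for example, had a mean of 2.49 in euploid and 6.90 in trisomic liver. With a replicate block the counts were 10 in liver (Cdc45 not called, adjusted p = 0.06919), 2 in pre-mid-pachytene spermatocytes (E2f1 called, adjusted p = 0.006423, Ccnd1 and Cdc25c not), 0, 0, 34, 24, 13 and 8 in the order above, the last without Cdk1 (adjusted p = 0.05552). Same-numbered arrays deviated together with correlations of 0.10 to 0.17 in liver, where each array went best with its own number, and of -0.14 to 0.36 elsewhere, so the numbers were not taken to pair arrays. Averaging several probe sets of a gene was not run, since each symbol has 1.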
